A study of Mus musculus with 7 samples.

Results

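The first 10 Mb of mouse chromosome 14 were described in naive CD8 T cells with and without the tyrosine kinase Lck, as all probes of a gene expression array that start before 10 Mb on that chromosome (build mm9, the positions given by the array files). The array holds 77 such probes under 59 gene names, of 34797 names in all, and 33 of the 59 names were measured. The stretch was chosen by its Lck-off against WT differences, since earlier results of these data showed a run of lower values there. The Lck-off against WT differences of its genes are therefore given as a description without p-values, and the counts of genes past the threshold support nothing by themselves.

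Both groups were naive (CD8b+ and CD44low) lymphocytes sorted from lymph nodes of OT-1het, Rag-/- mice, which carry 1 transgenic T cell receptor on a background that makes no other. The WT group held 3 arrays. The Lck-off group held 4 arrays of cells labelled Lck-/-, from mice whose knocked-in, doxycycline-dependent Lck had been switched off by 7 days without the drug. The series calls the samples biological replicates. The sources used here do not say whether each was 1 animal, what diet the WT mice ate, which strain background either group had or what drives the knocked-in Lck, so diet, genotype and any difference in background cannot be told apart.

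All 7 arrays lay on 1 slide in 2 rows, and their 75th percentile of intensity was 208 to 235 in WT against 212 to 243 in Lck-off. The Lck probe had levels of 8.99, 9.02 and 8.98 in WT and of 8.52, 8.83, 8.60 and 8.55 in Lck-off (a level is the log2 intensity minus that of the array's 75th percentile). It was lower in 4 of 4 Lck-off arrays by 0.37 ± 0.09 (SE); the sources used here do not say which part of Lck the deleted allele lacks, so this probe cannot check the labels. The 10 markers of CD8 T cells were measured, and 1 of them passed the threshold used below (Lat, higher by 0.27 ± 0.06). At an unadjusted p under 0.05 there were 4: Lat, Cd8a (0.28 ± 0.10) and Cd8b1 (0.25 ± 0.07) were higher and Cd28 was lower, by 0.49 ± 0.13. The 10 summed to 2146 to 2262 times the 75th percentile in WT against 2225 to 2341 in Lck-off. Of 14 markers of macrophages, monocytes and neutrophils 7 were measured and 1 passed (C1qb, higher by 0.59 ± 0.14). At an unadjusted p under 0.05 there were 4, each higher in mean: C1qb, C1qa (1.38 ± 0.37), C1qc (1.75 ± 0.52) and Fcer1g (0.90 ± 0.37). For C1qa, C1qc and Fcer1g the groups overlapped. C1qa and C1qc were each well above background on 1 of 3 WT arrays and 4 of 4 Lck-off arrays. The median difference of the 7 was 0.59. The 7 summed to 41.1 to 58.5 in WT against 51.2 to 60.2 in Lck-off, with Vsig4 well above background on 0 of 7 arrays. Most of these sums is Itgam, at mean levels of 5.47 in WT and 5.61 in Lck-off. Of 13 dendritic cell markers 9 were measured and 2 passed (Ccr9 higher by 0.69 ± 0.10, Il3ra lower by 0.61 ± 0.11). An unadjusted p under 0.05 was found for 4, H2-Ab1 (1.40 ± 0.58) and H2-Eb1 (1.26 ± 0.53) among them, both with overlapping groups. The 9 summed to 286 to 305 in WT against 309 to 369 in Lck-off, with Clec9a well above background on 0 of 7 arrays. Most of these sums is Siglech, at mean levels of 8.00 in WT and 8.10 in Lck-off, so they say little of the other markers. Of 8 B cell markers 4 were measured and none passed (1 had an unadjusted p under 0.05, Cd22, higher by 0.24 ± 0.09). The sums were 12.6 to 14.6 in WT against 12.3 to 15.2 in Lck-off. Cd79b makes up most of them, at mean levels of 3.70 in WT and 3.62 in Lck-off, so they say little of the other markers. Ms4a1, Pax5 and Fcrla were well above background on 0 of 7 arrays. Of 6 NK cell markers 3 were measured and 1 passed (Nkg7, lower by 0.78 ± 0.08), with sums of 305 to 322 against 182 to 204. Nkg7 makes up most of these sums, at mean levels of 8.12 in WT and 7.34 in Lck-off, so they say little of the other markers. Klrd1 differed by -0.16 ± 0.09 and Tyrobp by 0.66 ± 0.44, both with overlapping groups. Among measured CD4 T cell markers 0 of 3 passed and among stromal ones 0 of 3, none with an unadjusted p under 0.05. Of all 18231 measured genes, 3918 had an unadjusted p under 0.05 in the same fit (limma, described below). The part of other cells in the results below was not tested, and because whole populations were measured, fewer cells making a transcript and less of it per cell cannot be told apart.

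The proximal end of mouse chromosome 14 carries a family of recently duplicated genes, the takusan family, whose copies lie in tandem and are nearly identical in sequence. The family is thought to derive in part from Dlg5, a scaffold gene of the membrane-associated guanylate kinase family, and a takusan protein is known from neurons as a partner of PSD-95, the product of Dlg4. Most copies have only predicted gene names (Gm and a number), and one, 2610042L04Rik, is listed in RefSeq under the synonym takusan. Beyond the duplicated genes lies a stretch of single-copy genes with known roles, among them Abhd6, Pdhb and Kctd6.

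The sequences of the probes show which members can be told apart on this array, and those that carry the pattern are printed first, 5′ to 3′ as deposited, with mm9 positions on chromosome 14. Probes for 3 predicted genes, Gm5796 (chr14:4139620-4139679, plus strand), Gm3264 (chr14:4976100-4976159, plus) and Gm8050 (chr14:5269494-5269553, plus), read the same element; capitals mark the 41 bases that the 3 probes share.
Gm5796: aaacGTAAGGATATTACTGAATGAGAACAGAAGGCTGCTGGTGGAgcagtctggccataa
Gm3264: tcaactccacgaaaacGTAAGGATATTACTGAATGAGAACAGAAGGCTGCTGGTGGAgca
Gm8050: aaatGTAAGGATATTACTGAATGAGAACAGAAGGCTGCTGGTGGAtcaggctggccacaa

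The Gm5796 and Gm3264 probes have 48 bases in a row in common, so a transcript that carries this run could bind both. The Gm5796 and Gm8050 probes differ at 4 of 60 positions, C4T, G46T, T50G and T58C, counted from the 5′ end with the base of Gm5796 first. The transcript that the array names Gm8050 is listed in RefSeq as Gm3317, where Gm8050 is another gene, and the array's name is kept here. Probes of Gm1973 and D830030K20Rik joined the same group by alignment over at least 30 bases with at least 80% identity, and neither of these probes was detected. Another probe of D830030K20Rik was, at a difference of 0.04 ± 0.08. Of its bases 31 are a short tandem repeat, so this value does not give the level of that transcript.

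A second pair, annotated as LOC100503728 (chr14:5665612-5665671, plus) and as an unnamed transcript under the probe name A_55_P2049261 (chr14:8070308-8070367, minus), lies on opposite strands far apart but shares 40 bases, in capitals.
LOC100503728: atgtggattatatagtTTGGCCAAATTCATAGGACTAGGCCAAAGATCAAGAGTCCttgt
A_55_P2049261: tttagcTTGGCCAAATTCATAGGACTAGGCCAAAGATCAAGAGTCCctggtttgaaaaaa

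The third set joins Gm3727 (chr14:8088634-8088693, minus) and Gm5797 (chr14:8156728-8156787, minus) with Gm5458 (chr14:20413566-20413625, minus), a relative that lies outside the first 10 Mb. Capitals mark the 11 bases common to the 3 probes.
Gm3727: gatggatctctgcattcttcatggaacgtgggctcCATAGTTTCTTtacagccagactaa
Gm5797: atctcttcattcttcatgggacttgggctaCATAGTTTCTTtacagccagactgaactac
Gm5458: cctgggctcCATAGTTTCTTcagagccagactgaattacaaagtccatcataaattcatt

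Gm3727 and Gm5797 have 23 bases in a row in common and 92.5% identity over 53 aligned bases; Gm3727 and Gm5458 have 18 in a row. In all, 24 of the 77 probes fell into 9 such likeness groups, and no 2 probes on the array had the same sequence. A value printed under 1 name may include transcripts of near copies. Binding of 1 transcript to several probes was not tested, and the number of places in the genome that each probe matches was not examined here.

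A further likeness joined the brighter probe of Gm5796 with the second probe of Gm5797, both lower in Lck-off cells, over 40 aligned bases with 90% identity. The 6 other called probes were like no other probe of the region by this rule. That of Gm10406 (chr14:7838959-7839018, minus) and that of LOC545005 (chr14:7701115-7701174, minus; the file describes its cDNA as having an apparent retained intron) are printed as examples of these 6.
Gm10406: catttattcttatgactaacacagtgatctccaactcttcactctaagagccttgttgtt
LOC545005: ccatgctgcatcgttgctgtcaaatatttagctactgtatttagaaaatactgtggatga

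Of the 33 measured genes, 12 were lower and 0 higher in Lck-off cells (15 and 0 at an unadjusted p under 0.05) at an adjusted p under 0.05 (limma's moderated fit to all 18231 measured genes, Benjamini-Hochberg adjustment). Over the whole array 8.38% of genes passed this threshold in either direction and 4.57% in the lower direction. An unadjusted p under 0.05 in that limma fit was found for 3918 of the 18231, in either direction. In the fit to probes 14 of 39 measured probes passed, all of them lower, against 7.33% of all probes in either direction and 3.87% in the lower one. The 12 genes were Gm5796, Gm3252, Gm3264, LOC100503728, A_55_P2171196, LOC545005, Gm10406, A_55_P2049261, Gm16525, Gm3727, Gm5797 and Gm3760. Their names are those of predicted genes, unnamed transcripts or loci, and 7 of them matched a RefSeq gene: Gm5796, Gm3264, Gm10406, Gm3727 and Gm5797 are listed there as protein coding, Gm3252 and Gm16525 (now Gm3715) as transcribed pseudogenes.

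The size of the difference is given for the 12 genes as a description, since they were picked by it. It ranged from -1.27 to -0.76 with a median of -0.98, which is 41.5% to 58.9% of the WT level with a median of 50.7%. The SD between the 12 differences was 0.12, and the median SE of a single difference was 0.13. In the authors' deposited table the same 12 ran from -0.91 to -0.31. They lay on both strands, 4 on the plus and 8 on the minus strand, between 4.14 and 8.33 Mb.

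**Figure D1:**
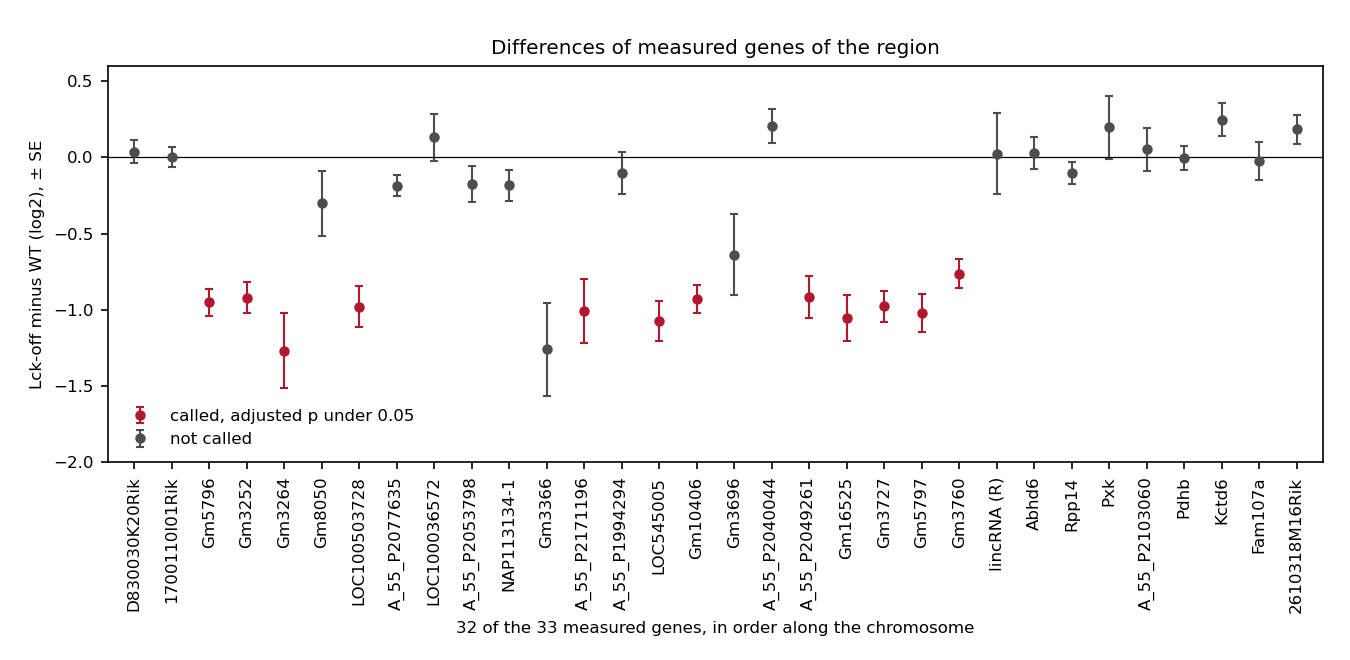
Difference between Lck-off and WT (log2, ± SE, 3 WT and 4 Lck-off arrays) for 32 of the 33 measured genes in their order along the chromosome; red points passed an adjusted p under 0.05. The 12 red points lie between -1.27 and -0.76, and the 9 genes to their right, from a lincRNA to 2610318M16Rik, lie between -0.10 and 0.25.

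Gm5796, a predicted protein-coding gene, was read by 2 detected probes that lie in different parts of its transcript. Its brighter probe (chr14:4144179-4144238) had levels of 1.07, 1.06 and 0.89 in WT and of 0.10, 0.19, -0.04 and -0.04 in Lck-off. All 4 Lck-off arrays were below all 3 WT arrays, and the difference was -0.95 ± 0.09 (SE), or 51.7% of WT. The probe in the shared element gave -2.49, -2.85 and -2.37 in WT against -3.57, -3.17, -3.61 and -3.81 in Lck-off. Its difference was -0.97 ± 0.18, the same within error, although it was well above background on only 2 of the 4 Lck-off arrays.

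Gm3252, a transcribed pseudogene, had levels of 0.90, 1.02 and 0.81 in WT and of 0.05, 0.07, -0.23 and 0.06 in Lck-off, a difference of -0.92 ± 0.10. Lck-off replicate 3 was lower than the other Lck-off arrays, which were close together, and the groups did not overlap. Gm3264 was well above background on 3 of 3 WT arrays, at -3.26, -2.76 and -2.95, and on 0 of 4 Lck-off arrays. On this scale of levels it was therefore at least 1.74-fold lower in Lck-off cells, where the bound sets the WT mean against, on each Lck-off array, the faintest level called well above background or the probe's own level if that was higher. The bound does not hold under other treatments of the intensities: the difference was -0.35 with normexp background correction and -0.31 in the deposited values. The probe was kept through its WT arrays alone. The measured difference of Gm3264 was -1.27 ± 0.25, and the gene missed the threshold in 3 of 7 fits that each left out 1 array (WT replicate 2, WT replicate 3 or Lck-off replicate 3).

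The pair that shares 40 bases moved together. LOC100503728 had levels of -0.16, -0.59 and -0.37 in WT and of -1.16, -1.27, -1.51 and -1.48 in Lck-off, a difference of -0.98 ± 0.13. A_55_P2049261 had levels of -0.51, -0.73 and -0.93 in WT and of -1.44, -1.87, -1.55 and -1.72 in Lck-off, a difference of -0.92 ± 0.14. In neither case did the groups overlap, and since 1 transcript could bind both probes the pair need not be separate measurements.

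At the minus-strand end, Gm3727 had levels of 0.79, 0.70 and 0.69 in WT and of -0.25, -0.04, -0.45 and -0.26 in Lck-off, which is 50.7% of WT (95% interval 43.0% to 59.9%). Gm5797, its near copy, had 0.19, 0.30 and 0.16 in WT against -0.68, -0.57, -1.03 and -0.93 in Lck-off, which is 49.3% of WT (40.3% to 60.3%). The second Gm5797 probe, which overlaps the first by position, gave -0.99 ± 0.09 against -1.02 ± 0.13 for the first. Both genes were at about the same fraction of WT, and no Lck-off array reached the lowest WT array.

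Gm16525, a pseudogene transcript whose probe starts within 250 bases of that of A_55_P2049261, had levels of 1.09, 0.68 and 0.64 in WT and of -0.00050, -0.21, -0.34 and -0.47 in Lck-off, a difference of -1.06 ± 0.15. Gm10406 had levels of 0.52, 0.35 and 0.45 in WT and of -0.35, -0.45, -0.67 and -0.49 in Lck-off, a difference of -0.93 ± 0.09. LOC545005 had 1.84, 1.81 and 1.77 in WT against 1.01, 0.83, 0.44 and 0.65 in Lck-off, a difference of -1.07 ± 0.13. The WT arrays of LOC545005 were within 0.1 of each other and its Lck-off arrays were more spread.

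Gm3760, the last gene of the run, had the smallest difference of the 12, -0.76 ± 0.10, with levels of -1.27, -1.38 and -1.43 in WT and of -2.09, -1.98, -2.31 and -2.12 in Lck-off. The unnamed transcript under probe A_55_P2171196 had levels of 0.46, -0.19 and -0.15 in WT and of -0.56, -0.98, -1.16 and -1.16 in Lck-off, a difference of -1.01 ± 0.21. Its WT replicate 1 was higher than the other WT arrays, and the gene missed the threshold in 6 of 7 fits that each left out 1 array, that without Lck-off replicate 1 being the exception.

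**Figure D2:**
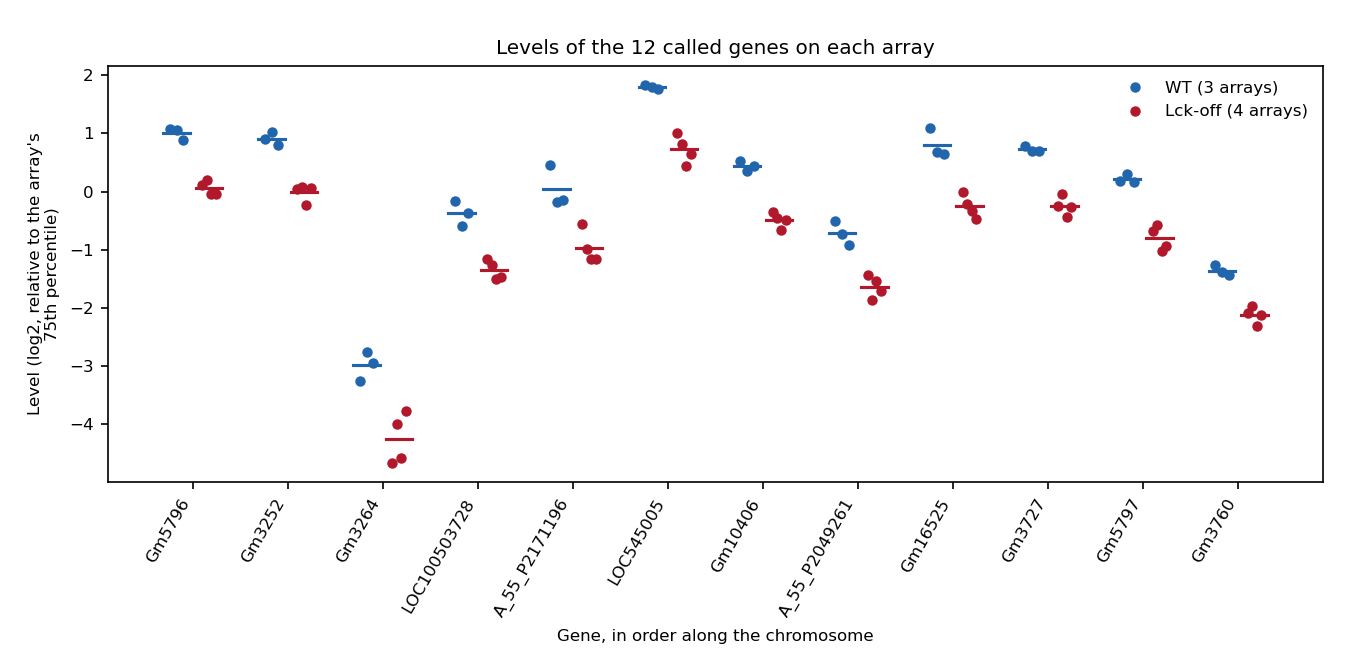
Level (log2 intensity relative to the array's 75th percentile) of the 12 called genes on each of 3 WT arrays (blue) and 4 Lck-off arrays (red), with the group means as lines, in order along the chromosome. In each of the 12 genes the red points lie below the blue ones, by 0.76 to 1.27 on average. The 12 were picked by this same difference, so their separation is a description. Over the whole array, 2183 of 18231 measured genes had all Lck-off arrays below all WT arrays.

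Some arrays lay lower or higher than others of their group over these genes. Lck-off replicate 3 was the lowest Lck-off array in 8 of the 12 and WT replicate 1 the highest WT array in 9. Averaged over the 12 genes, Lck-off replicates 1 to 4 lay 0.88, 0.90, 1.16 and 1.02 below the WT mean, and the WT replicates at 0.10, -0.02 and -0.08 around it. Slide row, which held WT replicate 3 with Lck-off replicates 2 and 3 in row 1 and the others in row 2, left the direction as it was: within row 1 the 12 differences were -1.34 to -0.71 and within row 2 -1.22 to -0.78. Row 1 has a single WT array, so its fit takes that array to vary like the Lck-off arrays. In neither row alone, with 3 and 4 arrays, did a gene of this region pass limma's adjusted threshold (14 and 18 of the 33 had an unadjusted p under 0.05); over the whole array 102 genes passed in row 1 and 0 in row 2, where 2711 had an unadjusted p under 0.05.

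The differences were smaller in size, with the same direction, under 2 other treatments of the intensities. With normexp background correction (offset 50) the 12 differences were -0.94 to -0.35 with a median of -0.73, and in the authors' deposited log2 values, whose steps are not known, they had a median of -0.69. All 12 passed the threshold in both. In the deposited values 4 of the 12 differences were smaller by more than 1.5 times: Gm3264 was at -0.31 (smaller than its bound), Gm3760 at -0.37, A_55_P2049261 at -0.48 and A_55_P2171196 at -0.66.

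**Figure D3:**
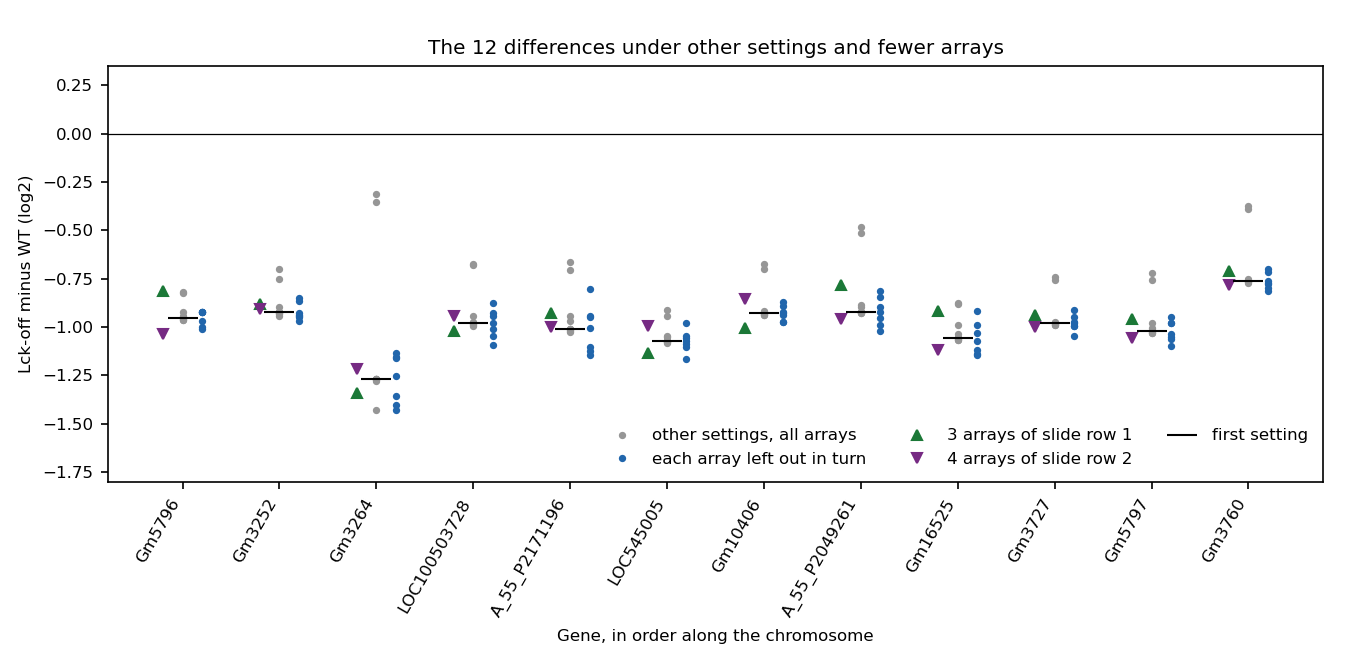
Difference (log2, Lck-off minus WT) of the 12 called genes in the reported setting (black bars), under other settings with all arrays (grey), with each array left out (blue) and within each row of the slide (triangles). All values lie below 0; the grey points nearest to 0 are those of normexp correction and of the deposited values.

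Between the first and the last of the 12 genes lay 9 measured genes that did not pass the threshold. The 3 with the largest differences were predicted genes close to background. Gm3366 was well above background on 3 of 3 WT arrays, at -2.63, -2.49 and -3.03, and on 0 of 4 Lck-off arrays, which makes it at least 2.16-fold lower; its measured difference was -1.26 ± 0.31 and the groups did not overlap. Like Gm3264, it was kept through its WT arrays alone. With normexp correction its difference was -0.34 and in the deposited values -0.29, both smaller than that bound. Gm3696 had levels of -3.08, -3.22 and -2.95 in WT and of -4.18, -2.98, -3.86 and -3.89 in Lck-off, with a difference of -0.64 ± 0.27. Lck-off replicate 2 lay within the WT range. Gm8050 (Gm3317 in RefSeq), which shares the 41-base element, had -2.70, -2.78 and -2.79 in WT against -3.38, -2.58, -2.84 and -3.44 in Lck-off, a difference of -0.30 ± 0.22 with overlapping groups.

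The other 6 had differences near 0 and probes that were in no likeness group with those of the 12. LOC100036572 was at 0.13 ± 0.15, A_55_P2040044 at 0.21 ± 0.11 and A_55_P2077635 at -0.19 ± 0.07, the last with groups that did not overlap (2.87 to 2.97 in WT, 2.65 to 2.79 in Lck-off). The overlapping probes A_55_P2053798 (chr14:6502152-6502211, minus) and NAP113134-1 (chr14:6502164-6502223, minus), which share 48 bases (capitals), both gave a difference of -0.18.
A_55_P2053798: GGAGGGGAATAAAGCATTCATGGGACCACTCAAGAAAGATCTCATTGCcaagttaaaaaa
NAP113134-1: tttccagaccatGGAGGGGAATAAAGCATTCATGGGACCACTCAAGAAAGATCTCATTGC

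In 3 detected probes of the region 20 bases or more are a short tandem repeat, of a kind that occurs in many transcripts. Of these 2 are printed, with the repeat in capitals, and the first of them precedes the first of the 12 genes.
1700110I01Rik: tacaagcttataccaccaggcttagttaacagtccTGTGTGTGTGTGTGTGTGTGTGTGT
A_55_P1994294: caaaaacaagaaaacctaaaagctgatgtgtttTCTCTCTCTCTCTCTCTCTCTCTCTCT

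The 2 printed probes, at chr14:3305155-3305214 on the plus strand and chr14:7212469-7212528 on the minus strand, were well above background on 7 of 7 arrays each. The noncoding RNA 1700110I01Rik was at 3.03, 3.04 and 3.04 in WT against 3.01, 3.02, 3.13 and 3.00 in Lck-off, and A_55_P1994294 differed by -0.10 ± 0.14. For 1700110I01Rik this repeat probe was the only one detected, so the level of its transcript cannot be read from the array. The same holds for D830030K20Rik, whose only detected probe is the repeat probe that is not printed.

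After the last of the 12 genes came 10 measured genes, from a reverse-strand lincRNA (its probe at chr14:8577324-8577383) onwards. That none of them passed the threshold follows from how this stretch is bounded; 8.38% of all genes passed. None had an unadjusted p under 0.05 in limma (0 of 10, against 3918 of 18231 over the array). Their differences were -0.10 to 0.25 with a median of 0.03, against -0.01 over all measured genes. Rpp14, which encodes a protein of the RNase P complex that trims transfer RNA precursors, was at 1.10, 1.17 and 1.10 in WT against 1.13, 1.01, 0.99 and 0.96 in Lck-off, a difference of -0.10 ± 0.07.

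Pdhb, the beta subunit of the E1 enzyme of the pyruvate dehydrogenase complex, which turns pyruvate into acetyl-CoA in mitochondria, was at 5.29, 5.26 and 5.46 in WT against 5.30, 5.43, 5.28 and 5.34 in Lck-off. Its groups overlapped and the 95% interval of the difference was -0.19 to 0.18. A second Pdhb probe gave 0.01 ± 0.08, and the third, on a cDNA that the file lists separately, gave 0.26 ± 0.08 and was at most 0.11 on the WT arrays and 0.25 to 0.42 on the Lck-off arrays. Abhd6, a lipase that breaks down the endocannabinoid 2-arachidonoylglycerol, differed by 0.03 ± 0.11 in 1 probe and 0.27 ± 0.13 in another. That other probe shares 52 bases with a probe annotated elsewhere in the genome (NAP111802-1), which differed by 0.17.

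Pxk, a PX domain protein related to protein kinases, was at -1.68, -1.84 and -0.92 in WT and at -1.30, -1.22, -1.25 and -1.35 in Lck-off. WT replicate 3 stood apart: the difference was 0.20 ± 0.21 with it and 0.48 without it, where Pxk passed the threshold as the single higher gene of the region. Kctd6, an adaptor for a ubiquitin ligase, differed by 0.25 ± 0.11 (95% interval -0.01 to 0.51), Fam107a by -0.02 ± 0.12 and the noncoding RNA 2610318M16Rik by 0.18 ± 0.10. The 2 detected probes for the lincRNA gave 0.02 ± 0.27 and 0.72 ± 0.57, too uncertain to read. The members just inside the 10 Mb limit, Fam107a and 2610318M16Rik, stand beside the first measured genes outside it, Fhit at 0.48 ± 0.12, A_55_P2015599 at 0.17 ± 0.11 and NAP111610-1 at -0.50 ± 0.09.

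**Figure D4:**
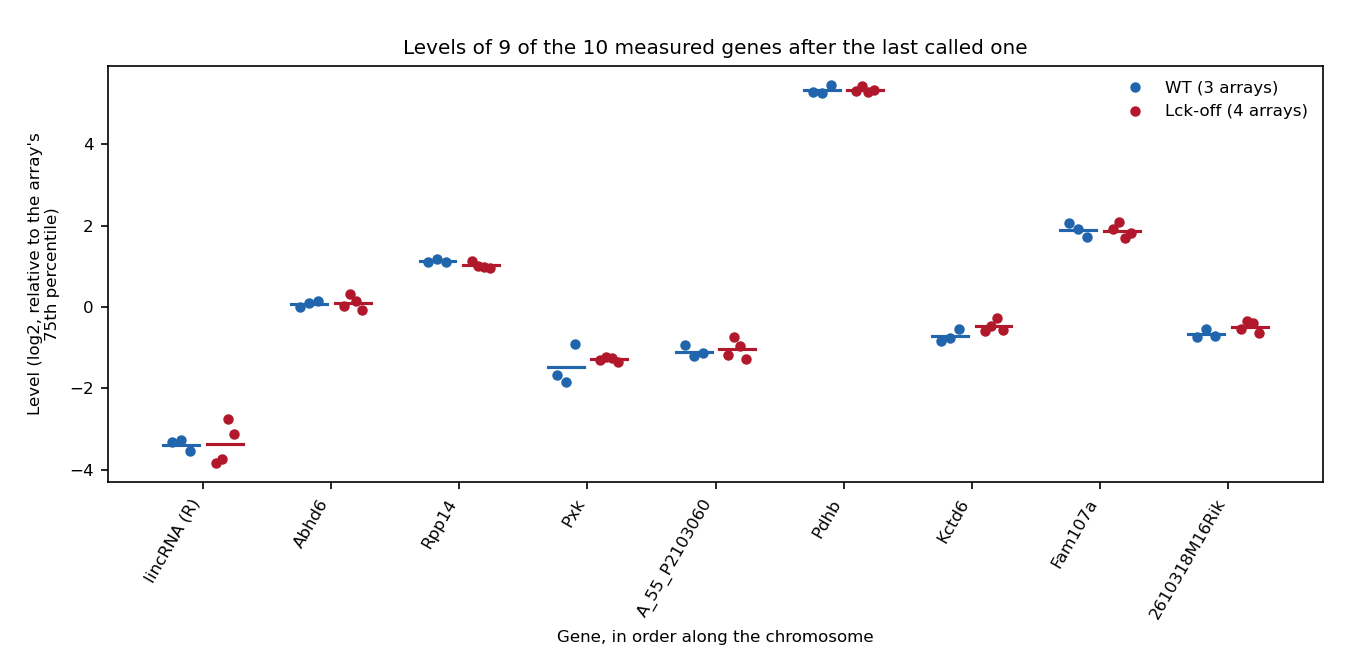
Level (log2 intensity relative to the array's 75th percentile) of 9 of the 10 measured genes after the last called one, on 3 WT arrays (blue) and 4 Lck-off arrays (red), with group means as lines; lincRNA (R) is the reverse-strand lincRNA. The groups overlap in each of the 9 genes, and WT replicate 3 is the high WT point of Pxk.

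Other genes of the pathways to which these single-copy genes belong gave few calls. In the pyruvate dehydrogenase list 0 of 11 measured genes passed (1 at an unadjusted p under 0.05), with a median difference of -0.09, and among RNase P and MRP proteins 0 of 9 (1 unadjusted), with a median of -0.10. Of 6 genes of endocannabinoid turnover 0 passed (2 unadjusted), with a median of 0.03. These counts are from the same limma fit, in which 8.38% of all genes passed and the median difference was -0.01. In that fit 3918 of 18231 genes had an unadjusted p under 0.05. In peroxisomal beta-oxidation 1 of 9 measured genes passed: Abcd3, a transporter of the peroxisomal membrane, fell by 0.31 ± 0.07. Among DNases Trex1, a cytosolic DNA exonuclease, rose by 0.90 ± 0.12 and the other 4 of 5 measured genes did not pass. Acox2 and Dnase1l3, the members of these lists that lie in this region, were well above background on 0 of 7 arrays.

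In the Dlg list, 4 of 6 genes were measured. Dlg4, which encodes PSD-95, fell by 1.10 ± 0.20 with levels of -1.12 (mean of 3 WT arrays) and -2.23 (mean of 4 Lck-off arrays), Mpp1 rose by 0.45 ± 0.08, and Dlg1 and Dlg3 were at -0.05 ± 0.11 and -0.20 ± 0.10. Dlg5, the gene from which the family is thought to derive, lies on the same chromosome at 25.0 Mb; its probe was well above background on 1 of 7 arrays and was not kept.

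Relatives of the family outside the first 10 Mb were found by sequence. Gm5458, at 20.4 Mb, had 1 detected probe of 4, printed with the third set. It was at -0.31, -0.16 and -0.04 in WT and at -1.03, -0.96, -1.20 and -1.36 in Lck-off, which is 51.1% of WT (95% interval 42.0% to 62.2%). Its groups did not overlap and its difference, -0.97 ± 0.12, was of the same size as those of the 12 genes. The Gm5458 probe is like those of Gm3727 (93.3% identity over 30 bases) and Gm5797, so it need not be a separate measurement. Shared binding was not tested. The other relatives, Gm8104, BC094917 and a transcript annotated as ENSMUST00000164552 between 42.4 and 44.0 Mb, were well above background on 0 of 7 arrays.

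By 10 Mb windows of chromosome 14, the first held 12 of 33 measured genes past the threshold (36.4%), the second 4 of 32, and the 11 that follow had shares between 0 of 5 and 3 of 30. The first window was chosen for its count, so it is not compared with the others by a test. A Gm name as such did not go with lower values. By the names in the array files, of 644 measured genes named Gm and digits outside the region 52 passed (8.07%), 19 of them lower, with a median difference of 0.00, and of 9 in the region 6 passed, with a median of -0.98. Gm3252 and Gm3760, which the files list by transcript, are not in that count.

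**Figure D5:**
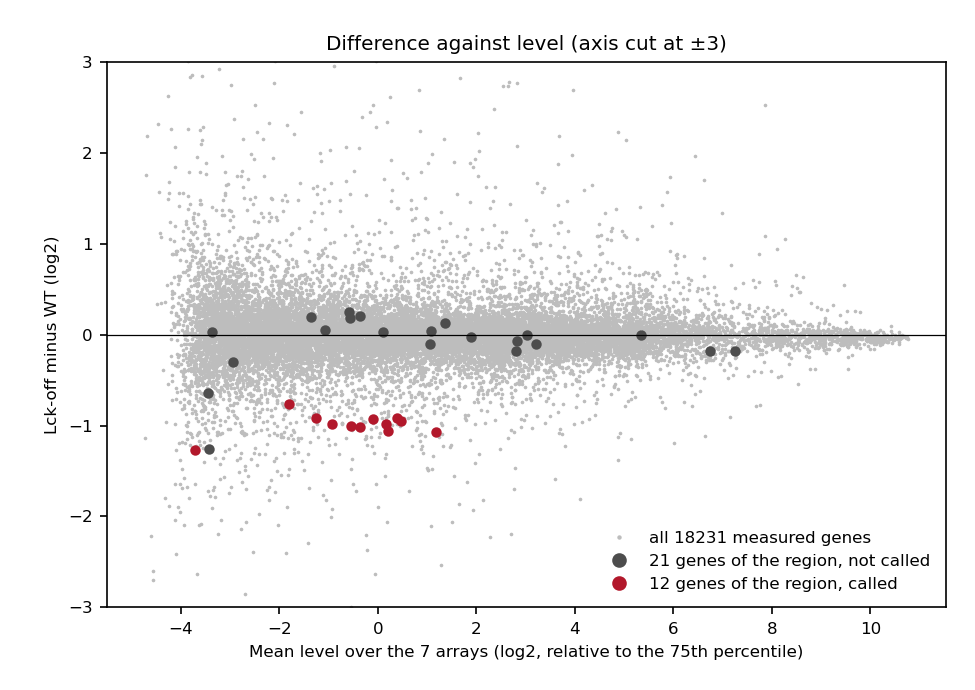
Difference (log2, Lck-off minus WT) against mean level over the 7 arrays for all 18231 measured genes (grey; vertical axis cut at ±3), with the genes of the region in black (not called, 21) and red (called, 12). The red points lie in a narrow band near -1 over a range of levels, and most black points lie near 0.

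Sequence features of the probes were compared next, with no test. The region was chosen with its duplicated genes and their shared probe targets in mind. The 14 called probes had 36.7% to 45.0% G and C (median 44.2%), against a median of 45.0% in the 9 measured probes between them that were not called. Of the 39 measured probes of the region 14 were called, and 8 of these 14 were like another probe of the region by the rule of 30 bases and 80% identity. Among the rest of the 39, the measured probes that were not called, 4 were. Probes that are alike could bind the same transcript and be called together, so these counts are a description.

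Upstream sequences from RefSeq (GRCm38.p6) were held for 4 of the 12 genes, and fell into separate kinds. The 250 bases before the start of Gm3264 (plus strand) and of Gm10406 (minus strand) are shown because they are rich in G and C, 73.2% and 70.0%, and alike, with 93.1% identity over 204 aligned bases. Capitals mark a GC box (GGGCGG on either strand).
Gm3264: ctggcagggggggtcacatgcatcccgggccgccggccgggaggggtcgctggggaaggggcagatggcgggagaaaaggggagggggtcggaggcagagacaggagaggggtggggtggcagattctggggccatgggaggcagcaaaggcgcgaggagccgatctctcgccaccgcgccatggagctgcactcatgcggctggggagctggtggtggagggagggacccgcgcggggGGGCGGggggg
Gm10406: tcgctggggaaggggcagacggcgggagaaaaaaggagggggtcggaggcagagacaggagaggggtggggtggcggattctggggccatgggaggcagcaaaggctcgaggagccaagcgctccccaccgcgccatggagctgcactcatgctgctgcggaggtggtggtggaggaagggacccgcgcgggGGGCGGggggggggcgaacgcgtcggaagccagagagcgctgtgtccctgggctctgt

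The upstream sequence of Gm5797 (minus strand) was of the second kind, with 47.2% G and C. It was 96.8% identical over 250 bases to that of Gm10413 (the current name of Gm1973), which was not detected, and 95.7% identical over 231 bases to that of 4930555G01Rik, also not measured.
Gm5797: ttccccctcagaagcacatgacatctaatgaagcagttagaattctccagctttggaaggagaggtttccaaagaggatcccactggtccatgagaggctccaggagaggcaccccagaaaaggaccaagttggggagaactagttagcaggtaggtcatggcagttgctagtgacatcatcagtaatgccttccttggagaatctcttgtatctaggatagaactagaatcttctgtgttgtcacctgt

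Gm5796 (plus strand, 47.6% G and C) was like neither. The GC box occurred in 12 of 35 upstream sequences of genes in this region and in 32.7% of 32851 such sequences in all, the CCAAT box (CCAAT) in 8 of 35 and 33.8%, and the TATA box (TATAAA) in 1 of 35 and 12.4%, each on either strand. Neither of the last pair was found before Gm3264, Gm10406, Gm5796 or Gm5797. Genes with both kinds of upstream sequence were thus among the 12, and genes with near copies of each were among those not detected. Measured genes that did not pass had like sequences too. That of Gm3317 (Gm8050 on the array) was 96.3% identical to that of Gm5797 over 187 bases. That of Gm3696 was 88.7% identical to that of Gm3264 over 248 bases.

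The remaining 26 of the 59 names had no probe well above background on 3 arrays or more. For 18 of them each probe was well above background on 0 of 7 arrays, for 4 the best probe was so on 1 array and for 4 on 2. They included 2610042L04Rik, Gm2897, Gm3248, Gm3187, 4930555G01Rik and Gm1973, and, among single-copy genes, Dnase1l3, an enzyme that degrades extracellular DNA, Acox2, a peroxisomal oxidase of branched chains, Oit1, whose probe is spotted 10 times, and 4930452B06Rik. No statement on their change can be made from these arrays.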

How the data were processed

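Total RNA of 3 WT and 4 Lck-off samples was labelled with Cy3 and hybridised to 1-colour Agilent arrays. Intensity values were produced by the authors with Feature Extraction 10.7.3.1, per the file headers (design 028005, probe positions on mm9); the processed intensity is background subtracted, the mean and background intensity are not, and flags come from the same program. The authors' deposited table of processed values is on a log2 scale, as its values show; limma is named in the submitters' processing notes, with no version and no steps.

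Levels were log2 processed intensities minus the array's 75th percentile. Spots of a probe were averaged, a probe was kept (25578 of 55681) if well above background on 3 or more of the 7 arrays, and each gene name was read by its brightest kept probe. Groups were compared in 1 fit to all genes with limma 3.58.1 in R 4.3.3, two-sided, at a Benjamini-Hochberg adjusted p under 0.05; the fit was tested on simulated data. Probe likeness came from blastn 2.17.0 (word size 7). Names were matched to a GRCm38.p6 RefSeq table, used for names and upstream sequences alone: 33 of 59 matched.

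The region, its gene lists and the rule for named genes (all that passed in either fit, all with a known function, those whose probes disagree, the 3 largest others and those with near-identical probes) were chosen with earlier results of these data known. Same-numbered replicates of the groups did not deviate together (r = 0.11, 0.05 and -0.01), so the main fit has no block. Arrays give no counts; their number limits the precision. Some items that the rule covers are not reported here.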

Additional observations from a re-analysis of the deposited data

Results flagged for a closer look

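Of the 39 measured probes of the region, 2 had 1 Lck-off array far from the other 3; by chance about 1 in 20 groups would be so. In Gm3252, Lck-off replicate 3 was at -0.23 and the nearest other array at 0.05, a gap of 0.903 of the range of the 4 arrays. In LOC100036572, Lck-off replicate 2 was at 1.10 and the nearest at 1.48, a gap of 0.834 of the range. Leaving out Lck-off replicate 3 did not end the call of Gm3252.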

How the results depend on the processing

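The 12 genes were lower under each of the 17 settings that used both slide rows (16 for Gm3264, which a stricter filter removed), and 7 of the 12 passed the threshold in all. The count in the region was 7 of 17 measured genes before 8 Mb and 5 of 16 beyond it. Leaving out 1 array gave 10 to 13 genes called in the region (0 to 1 higher, 10 to 13 lower), 11 to 15 probes, and 960 to 1403 genes over the whole array, against 1527. With no filter on dim probes 717 of 34797 genes were called over the array, and 12 in the region, of which 1 was higher: Dnase1l3, well above background on 0 of 7 arrays. With the replicate number as a block, which pairs samples that share only a number and leaves Lck-off replicate 4 without a partner, 374 genes were called over the array and 9 genes and 6 probes in the region. Within slide row 1, 0 genes and 0 probes of the region passed the adjusted threshold by limma (14 genes at an unadjusted p under 0.05) and 102 genes over the array; within row 2, 0 and 0 (18 genes at an unadjusted p under 0.05) and 0 over the array (2711 unadjusted). The row fits, which have 3 and 4 arrays and in row 1 a single WT array, assumed to vary like the Lck-off arrays, were added after the data were seen. Of the 21 genes that did not pass, 18 passed in no setting; Gm3366 passed with median scaling, with slide row as a block, with trended and robust moderation and without Lck-off replicate 1, Gm3696 without Lck-off replicate 2 and Pxk without WT replicate 3. The causes were not tested. Probes near background limit Gm3264, Gm3366, Gm3696 and Gm8050.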
